A study of Mus musculus with 16 samples.

Results

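The genotype effect in cortical endothelial cells of 16p11.2 df/+ mice was averaged over both ages examined. It was estimated as the mean of the effect at postnatal day 14 (P14) and the effect at postnatal day 50 (P50). Such a mean does not require an effect at each age. All 16 libraries entered this estimate, and it was computed for each of the 15368 genes with enough reads, of 52636 gene IDs counted. Both mouse groups came from matings of hemizygous males with wild-type (WT) females on a mixed B6/129 background. The df/+ offspring lack 1 copy of a stretch of chromosome 7 in every cell, and the WT littermates keep both copies. The groups were df/+ at P14, WT at P14, df/+ at P50 and WT at P50, with 4 libraries each. Endothelial cells were taken from the cerebral cortex with magnetic beads against CD31, after removal of myelin and of CD45-positive cells, and RNA was extracted without culture. Each library pooled the cells of 2 mice, so the spread between replicates is a spread between pools.

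The deleted stretch corresponds to human 16p11.2, where loss of 1 copy is associated with autism and other developmental conditions. A gene present in 1 copy instead of 2 is often transcribed in proportion, and genes elsewhere can change in response. Endothelial cells line the blood vessels. In the brain they hold the blood-brain barrier through tight junctions and selective transporters, and they release nitric oxide to widen vessels.

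Total counts were 8658792 to 18063589 in df/+ and 12484207 to 17178787 in WT at P14, and 15611059 to 18737781 in df/+ and 14303921 to 17639603 in WT at P50. Endothelial markers were abundant in every library: Pecam1, which encodes CD31, stood at 1175 to 1673 CPM (counts scaled to the size of the library) and the junction gene Cdh5 at 469.5 to 1292 CPM. Transcripts of other cells were present, with the myelin gene Mbp at 629 to 19220.4 CPM and the macrophage receptor gene Csf1r at 5.0 to 63.9 CPM. All 16 libraries held 0 to 4 reads of Xist and 313 to 1618 reads of the Y-linked Ddx3y. A pair of libraries stood apart. Replicate 1 of P14 WT had 46.8 CPM of Csf1r, against 5.0 to 9.65 CPM in the other P14 WT libraries. Replicate 2 of P50 df/+ had the lowest Cdh5 and the highest Cldn5 (13416 CPM), and its counts leaned to short transcripts, by -0.35 on the log2 scale per doubling of transcript length. In bulk RNA of this kind, fewer cells of a type and less RNA per cell cannot be told apart.

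The column names number the libraries 1 to 16. Numbers 1 to 8 were given to WT at P14 and df/+ at P50, and numbers 9 to 16 to df/+ at P14 and WT at P50. At either age alone, genotype and number range therefore cannot be told apart, and neither can a difference of the genotype effect between the ages. In the averaged effect each range holds 4 libraries of each genotype, and a model of age, genotype and number range is the same model as the 4 group means. Averaging also narrowed the error: the median standard error (SE) of a gene's log2 fold change was 0.183 for the average, against 0.261 at P14 and 0.259 at P50.

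In the averaged comparison 18 of the 15368 tested genes passed an adjusted p of 0.05 in edgeR (quasi-likelihood F test, Benjamini-Hochberg adjusted over all of them), or 0.117%. Of these, 16 fell in df/+ (0.104%) and 2 rose (0.013%). The deleted interval held 15 of the genes that fell. Outside it, nonagouti and Tyr rose and Zswim1 fell. At P14 alone 10 genes were called (0.0651%) and at P50 alone 9 (0.0586%). Averaging added 6 calls made at neither age, Ypel3, Cdipt, Mvp, Kif22 and Mylpf of the interval and Tyr outside it. It lost 1 call, that of Spata25 at P50. The test of the difference between the ages called 0 genes by edgeR and 0 by DESeq2 and limma-voom, and 305 genes (1.98%) had an unadjusted p under 0.05 by edgeR.

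The interval from Slx1b to Sept1 spans 544 kb of chromosome 7 (GRCm38, 126689468 to 127233130) and holds 56 annotated gene IDs, 37 of them protein coding. Of the 56 IDs, 29 had enough reads to be tested, 28 protein coding and the transcript Gm9967. All 29 were lower in df/+ at P14 and at P50. The averaged log2 fold changes lay between -1.53 and -0.39, with a median of -1.03, or 0.491 times WT. A log2 value of -1, which is the loss of 1 copy of 2 read out in full, lay inside the 95% interval of 29 of 29 genes, and 0 lay outside that of 27. The 15 called genes lay between -1.28 and -0.95.

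**Figure D1:**
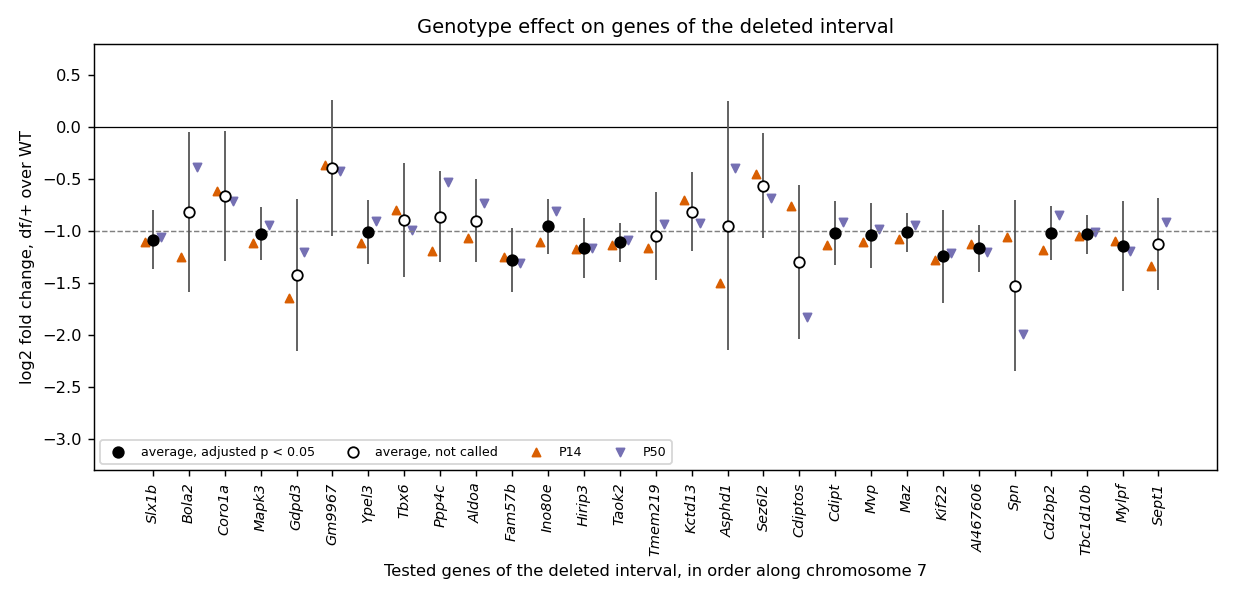
Log2 fold change (df/+ over WT) of the 29 tested interval genes in their order along chromosome 7, with triangles for P14 and P50 and circles with 95% intervals for the average of both ages. Filled circles passed the test; the dashed line marks -1, which lies inside every interval drawn, and all points lie below 0.

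The kinase genes Taok2 and Mapk3 both fell. Taok2, a kinase upstream of stress-activated MAP kinases, had 141, 152, 142 and 155 CPM in P14 df/+ libraries, against 283, 330.5, 345 and 339 CPM in P14 WT. At P50 it had 95.8, 100.3, 131 and 137 CPM in df/+, against 249, 239, 268 and 228 CPM in WT. The groups did not overlap at either age, and the averaged log2 fold change was -1.11 (SE 0.0887, adjusted p = 2.62e-05, edgeR quasi-likelihood test). Mapk3, which encodes the kinase ERK1, had 158, 138, 143 and 152 CPM in P14 df/+, against 272, 342, 321 and 340.1 CPM in P14 WT. The P50 values were 240.4, 293, 163 and 163 CPM in df/+, against 389, 436, 367 and 459 CPM in WT. It fell by 1.03 on the log2 scale (SE 0.121, adjusted p = 6.72e-04, edgeR). The P50 df/+ libraries of Mapk3 ranged more widely than those at P14, with replicate 2 the nearest to WT.

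Genes that act in the nucleus fell by similar amounts. Maz, a zinc finger transcription factor, had 103, 106, 105 and 104 CPM in P14 df/+, against 199.6, 222, 219 and 243 CPM in P14 WT. In the P50 libraries the level was 124, 168, 116 and 118 CPM in df/+, against 218, 252, 264 and 279 CPM in WT, again without overlap. Its averaged log2 fold change was -1.01 (SE 0.0888, adjusted p = 3.22e-05, edgeR). Hirip3, which binds the histone chaperone HIRA, fell by 1.16 and Ino80e, a subunit of the INO80 chromatin remodelling complex, by 0.95. Slx1b, a subunit of a nuclease that resolves branched DNA, fell by 1.08, and Cd2bp2, a protein of the splicing machinery, by 1.02. Kif22, a kinesin that moves chromosomes in dividing cells, fell by 1.24 (adjusted p = 0.0253, edgeR), from the fewest reads of the 15 called genes. It had 7.87, 7.37, 6.27 and 8.72 CPM in P14 df/+, against 8.87, 18.9, 23.8 and 21.6 CPM in P14 WT. Its P14 WT replicate 1 lay close to the df/+ libraries, and at P50 the levels were 1.29 to 2.52 CPM in df/+ and 3.41 to 6.004 CPM in WT.

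Genes of membranes and transport made up another group. Tbc1d10b, which switches off Rab GTPases, had 33.8, 29.5, 31.4 and 31.4 CPM in P14 df/+ and 60.2, 70.7, 66.8 and 64.2 CPM in P14 WT. Its P50 values were 40.1, 53.1, 36.2 and 34.8 CPM in df/+ and 79.8, 80.6, 83.5 and 86.3 CPM in WT. The averaged log2 fold change of Tbc1d10b was -1.03 (SE 0.0882), and its values at P14 and P50 were -1.05 and -1.01. Fam57b, which is tied to ceramide synthesis, fell by 1.28 (SE 0.145, adjusted p = 5.10e-04, edgeR). Cdipt, which makes phosphatidylinositol, fell by 1.02, and Mvp, the main protein of the vault particle, by 1.04. Both were called only in the average, with values of -1.13 and -1.10 at P14 and -0.92 and -0.98 at P50. AI467606 fell by 1.17, Ypel3, a gene linked to cell senescence, by 1.01, and Mylpf, a myosin light chain of fast muscle, by 1.15 (adjusted p = 0.0384, edgeR).

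The other 14 tested members did not pass the test, and their averaged log2 values lay between -1.53 for Spn and -0.39 for Gm9967. Among them were Aldoa, a glycolytic enzyme (-0.90, 95% interval -1.30 to -0.50), Kctd13, an adaptor of a cullin ubiquitin ligase (-0.82, -1.19 to -0.44), and Ppp4c, the catalytic subunit of a phosphatase (-0.86, -1.30 to -0.43). Sept1, a septin, had -1.12 (adjusted p = 0.0538, edgeR) and Tmem219 -1.05 (adjusted p = 0.0683). The leukocyte genes Spn and Coro1a had low levels, with 124 and 711 reads over the 16 libraries. The 27 IDs not tested had 0 to 90 reads over all libraries. They include the synaptic genes Prrt2 (41 reads) and Doc2a (22 reads) and the NAD synthesis gene Qprt (24 reads), so the deletion could not be measured in these.

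Of the 29 tested members, 14 had all 4 df/+ libraries below all 4 WT libraries at both ages. Over all tested genes 19 did so (0.124%), and the 5 outside the interval were Ret, Mxra7, Srfbp1, Dnm2 and Kdm4b, the last 3 named after their values were seen. The interval's median log2 level against WT of the same age was -1.03, -1.16, -1.15 and -1.06 in the 4 P14 df/+ libraries. In P50 df/+ it was -0.87, -0.49, -1.26 and -1.31, so replicate 2 showed the least reduction. The median over members was -1.11 at P14 and -0.94 at P50. Of 29 members, 0 had an unadjusted p under 0.05 for a difference between the ages (smallest 0.125, edgeR).

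The calls of 13 interval genes held when any 1 of the 16 libraries was left out. Kif22 and Mylpf held in 4 of 16 such fits, with adjusted p up to 0.0869 and 0.129. Members that share sequence with a neighbour have uncertain single values, since it is not known here whether strand was used in counting. Among tested genes these pairs are Kctd13 with Asphd1, Hirip3 with Ino80e, Aldoa with Fam57b, Bola2 with Slx1b and with Coro1a, Cdipt with Cdiptos, and Gdpd3 with Gm9967. Across the ends of the interval, Slx1b shares sequence with Gm6939 and Sept1 with Zfp553. Genes just outside the interval did not pass the test in edgeR. Zfp553, Zfp771, Dctpp1 and Sephs2, which lie at or beyond the end of Sept1, had log2 values of -0.12, 0.18, -0.05 and 0.03, and Sult1a1 on the other side had 0.15.

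The genes that rose outside the interval are both coat colour genes. Nonagouti (symbol a, chromosome 2, 154791402 to 155051012) encodes a secreted protein that blocks a melanocortin receptor on pigment cells. It had 39, 13, 30 and 25 reads in the P14 df/+ libraries, against 1, 1, 7 and 1 read in P14 WT. P50 libraries had 154, 241, 76 and 70 reads in df/+, against 0, 0, 1 and 0 reads in WT. Every df/+ library lay above every WT library of its age. The ratio of summed reads, scaled by the summed normalized library sizes, was 11.05 at P14 (95% counting interval 5.78 to 23.7), 506 at P50 (90.4 to 20025) and 57.7 over both ages (32.0 to 116). The fitted averaged log2 fold change was 5.91 (adjusted p = 4.51e-05, edgeR), a value that depends on the prior count because the WT counts are near 0. The call held whichever 1 of the 16 libraries was left out. Its effect differed between the ages at an unadjusted p of 0.00111, which did not pass the adjustment (1.00), and that comparison cannot be told apart from the library numbers.

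Tyr, the gene of tyrosinase, which makes melanin, lies on chromosome 7 (87424771 to 87493512), 39.2 Mb from the interval. It had 37, 31, 49 and 39 reads in P14 df/+ libraries and 17, 0, 42 and 46 reads in P50 df/+ libraries. All 8 WT libraries had 0 reads. Against a floor of 3 reads over the WT libraries, Tyr was at least 85.2-fold higher in df/+ over both ages, at least 53.7-fold at P14 and at least 32.7-fold at P50. With the counting error of both genotypes included, the lower 95% counting limits were 68.8 over both ages, 43.2 at P14 and 26.2 at P50. The adjusted p of the average was 0.0333 (edgeR). Replicate 2 of P50 df/+ had 0 reads where the other 3 of its group had 17 to 46, and without it the adjusted p was 2.67e-04 (edgeR). The call held in 2 of the 16 fits that left out 1 library, and the highest adjusted p among them was 0.0965. Of 13 tested genes of the coat colour and melanocyte list, 2 were called, nonagouti and Tyr, against 0.013% of all tested genes called higher. The list was drawn up with earlier results of these data known, so these 2 calls are no result about the list. Its other tested members were not called by edgeR, and the list's median log2 value was 0.05. Vectors used to engineer mouse chromosomes often carry tyrosinase or agouti as visible markers, and B6 and 129 mice differ at the agouti locus. Whether the allele of this line carries such markers, and which strain's agouti locus each pool held, is not given in the labels, and their part in the result was not tested.

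Zswim1 (chromosome 2, 164822686 to 164826871) was the 1 gene outside the interval that fell in the average, by 0.71 on the log2 scale (SE 0.130, adjusted p = 0.0473, edgeR). At P14 it had 8.63, 9.13, 8.58 and 9.68 CPM in df/+, against 8.87, 9.998, 11.01 and 11.9 CPM in WT, and these overlap. Values at P50 were 10.7, 12.2, 10.6 and 13.4 CPM in df/+, against 18.2, 35.9, 24.4 and 30.4 CPM in WT, with no overlap. The log2 fold changes were -0.21 at P14 and -1.22 at P50, and the P50 value was the larger (unadjusted p of the difference 0.00146, adjusted 1.00, edgeR). The call held in 2 of 16 fits without 1 library, with an adjusted p of up to 0.156. Spata25 lies on the opposite strand and shares 483 bases with Zswim1, and had an averaged log2 value of -0.93 (adjusted p = 0.196, edgeR). At P50 alone it fell by 1.66 (adjusted p = 0.0377, edgeR), and DESeq2 also called the average (adjusted p = 0.0128). It had 1.81 to 3.22 CPM in P50 df/+ and 5.11 to 11.5 CPM in P50 WT. Where strand use is unknown, reads of the shared bases cannot be told apart. Zswim1 lies 9.77 Mb from nonagouti. Genes beside these loci did not pass the test in edgeR, with Raly at 0.03, Ahcy at -0.17, Itch at 0.05, Acot8 at -0.09, Ctsa at -0.24 and Neurl2 at -0.44. Limma-voom with library weights called Ctsa (adjusted p = 0.00507) and Neurl2 (adjusted p = 0.031), and edgeR with 1 surrogate variable called Ctsa (adjusted p = 0.0481). Those settings called 86 and 33 of all 15368 genes, against 18 in the main fit.

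**Figure D2:**
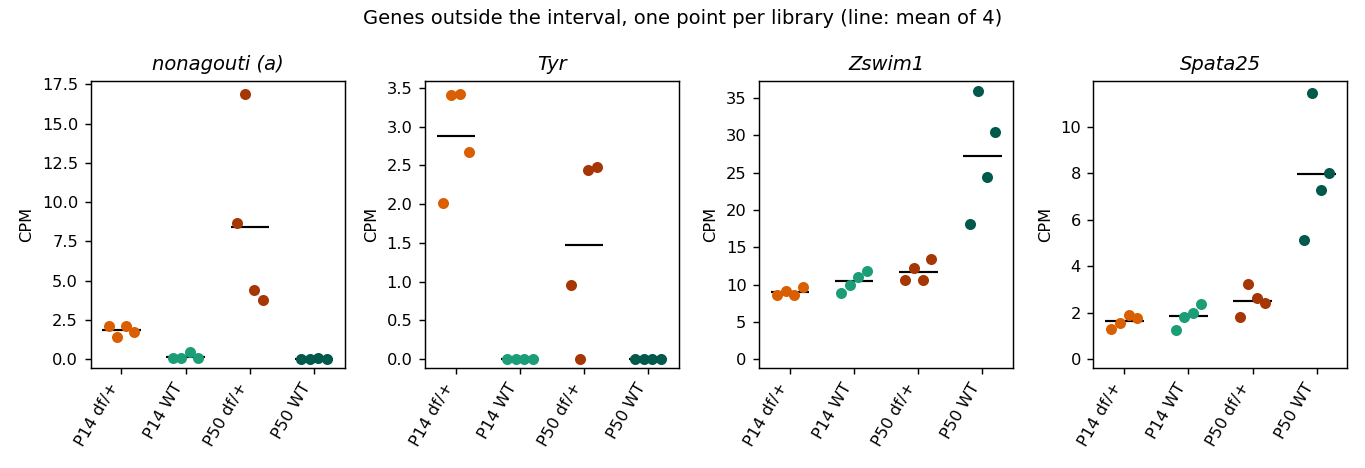
CPM of nonagouti, Tyr, Zswim1 and Spata25 in each library, with 4 points per group and a line at their mean. Nonagouti and Tyr are near or at 0 in every WT library, Tyr is also at 0 in P50 df/+ replicate 2, and Zswim1 and Spata25 separate the genotypes at P50.

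The rest of chromosome 7 was described by distance from the interval. Within 1 Mb on either side, 60 genes were tested, 0 were called by edgeR and 2 had an unadjusted p under 0.05 (3.33%), against 4.16% of all tested genes. The median log2 value of these 60 genes was -0.04. Between 20 and 40 Mb, 155 genes were tested, Tyr was called, and 9.03% had an unadjusted p under 0.05, 6 of them higher in df/+ and 8 lower, against 2.23% higher and 1.93% lower among all tested genes. From 40 Mb on, 3.63% of 689 genes had such a p. Nearer the interval the share was 0% of 48 genes at 1 to 5 Mb, 6.45% of 62 at 5 to 10 Mb and 5.78% of 173 at 10 to 20 Mb. Among whole chromosomes, without the interval, the highest share was 7.21% on chromosome 18, and chromosome 7 had 4.63%.

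No other gene passed in edgeR with all 16 libraries, and the genes with the next smallest p-values are given as values only. Ric3, a chaperone of acetylcholine receptors that lies on chromosome 7, 17.6 Mb from the interval, had 6.68, 5.83, 6.83 and 4.94 CPM in P14 df/+, against 4.44, 2.46, 2.82 and 3.14 CPM in P14 WT. Among P50 libraries it had 12.5, 9.80, 10.2 and 11.6 CPM in df/+, against 8.64, 7.88, 9.01 and 9.15 CPM in WT. All df/+ libraries lay above all WT libraries at both ages, as in 4 of the 15368 genes (0.026%), and the log2 value was 0.63 (adjusted p = 0.157, edgeR). Ret, a receptor tyrosine kinase, had a log2 value of -0.55 and Mxra7 -0.53. Irx3, a homeobox factor, had 0.70, Aldh1a1, which makes retinoic acid, 0.75, the glutamate receptor gene Gria1 0.82, and Dcdc2a 0.53. Gm10069, Rtkn2 and Zfhx4 had 1.13, 1.27 and 1.09 at levels under 3 CPM in every library. The adjusted p of these genes after Ric3 was 0.269 to 0.650 by edgeR. DESeq2 called 6 of them, Ric3 (adjusted p = 3.79e-04), Aldh1a1, Dcdc2a, Gm10069, Irx3 and Rtkn2, and 0.261% of the genes to which it gave an adjusted p. Of the 13 alternatives other than single omissions, Ric3 was called in 4 and Ret and Aldh1a1 in 3 each, while Gria1 and Mxra7 were called in 0. Without replicate 1 of P14 WT, Ric3 was called by edgeR (adjusted p = 0.0177). These genes were picked by their small p in the same counts, so the calls and the lack of overlap are not independent evidence.

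Across all 15368 genes the log2 fold changes at P14 and P50 had the same sign in 50.5%. Their correlation over genes was 0.156 by Pearson's r and 0.039 by Spearman's rho, and 0.144 and 0.034 over the 15339 genes outside the interval. Genes are not independent, and no library enters both ages.

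**Figure D3:**
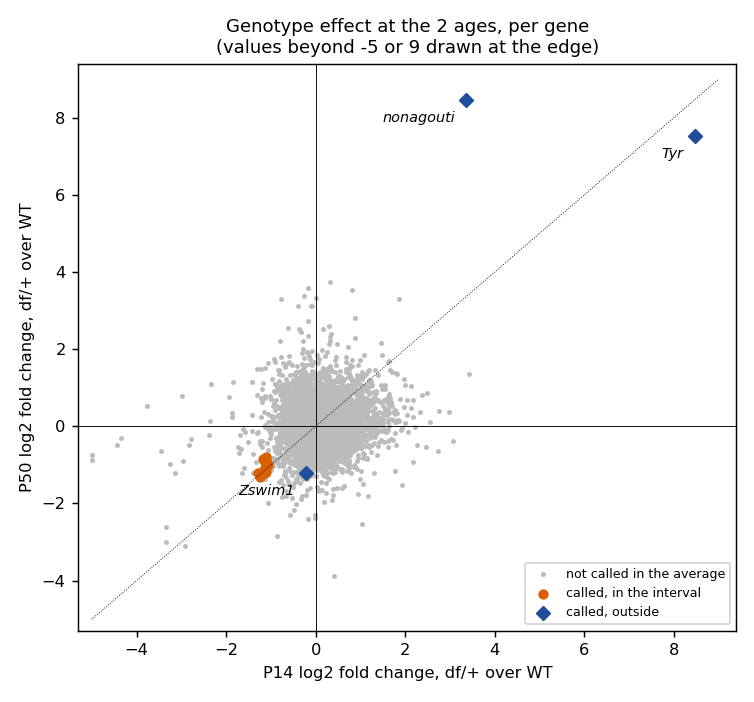
Log2 fold change (df/+ over WT) at P14 on the x axis and at P50 on the y axis, 1 point per tested gene, with values beyond the axis limits drawn at the edge and the dotted line marking equal effects. The called interval genes cluster near -1 at both ages, nonagouti and Tyr lie above 3 at both, Zswim1 lies near 0 at P14, and Spearman's rho over all tested genes is 0.039.

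Genes that define endothelial cells differed little in the average. Of 33 tested members of the endothelial identity list, 0 were called by edgeR, and 27 (81.8%) had a 95% interval within 0.5 of 0 on the log2 scale, against 50% of all tested genes. Their median was -0.05, with 7 of 33 above 0, against 0.00 and 51.5% for all genes. Pecam1 had 1404, 1275, 1332 and 1346 CPM in P14 df/+ and 1299.8, 1413, 1397 and 1401 CPM in P14 WT. At P50 it had 1386, 1175, 1586 and 1673 CPM in df/+ and 1529, 1404, 1592 and 1312 CPM in WT. Its averaged log2 value was -0.02, with a 95% interval of -0.20 to 0.16, so a change of more than 0.20 in either direction lies outside the interval. Tie1, an endothelial receptor tyrosine kinase, had -0.19 (-0.36 to -0.03, unadjusted p = 0.0255, edgeR), Cdh5 -0.15 (-0.48 to 0.19) and Tek, the angiopoietin receptor, -0.14 (-0.46 to 0.19).

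The blood-brain barrier list had 34 tested members, 18 above 0, a median of 0.02 and 24 with an interval within 0.5 of 0. Slc22a8, an organic anion transporter of the barrier, had 1451, 1546, 1519 and 1639.6 CPM in P14 df/+, against 1566, 1723, 1865 and 1698 CPM in P14 WT. The P50 values were 762, 727, 827 and 884 CPM in df/+, against 1006, 962, 1007 and 1103 CPM in WT. The P50 groups did not overlap and the P14 groups did, and the log2 value was -0.25 (-0.41 to -0.10, adjusted p = 0.915, edgeR), while DESeq2 called it (adjusted p = 0.016). The glucose transporter Slc2a1 had 0.17 (-0.08 to 0.42), the lipid transporter Mfsd2a 0.03 (-0.21 to 0.27) and the tight junction gene Cldn5 0.10 (-0.46 to 0.66). The interval of Cldn5 was the widest of these, and its P50 df/+ libraries ran between 2609 and 13416 CPM.

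Genes of vessel growth and tone gave medians near 0. The VEGF signalling and tip cell list (31 genes) had -0.02, the Notch and arterial list (24) -0.01, the venous list (16) 0.05, the Wnt and beta-catenin list (22) -0.04, the TGF-beta and BMP list (28) 0.06 and the basement membrane list (27) -0.02, with 0 called in each by edgeR. Kdr, the main VEGF receptor, had -0.07 (-0.42 to 0.28). In the vasoreactivity and nitric oxide list (27 genes, median 0.05) Nos3, the endothelial nitric oxide synthase, had 405, 421, 414 and 429 CPM in P14 df/+ and 394, 505, 469.8 and 502 CPM in P14 WT. In the P50 libraries the level was 549, 593.6, 419 and 384 CPM in df/+ and 462, 516, 492 and 458 CPM in WT. The groups overlapped at both ages, and the averaged log2 value was -0.08 (-0.28 to 0.13). Of that list, the heme oxygenase Hmox1 had -0.28 and the cyclooxygenase Ptgs1 0.46, and neither passed the adjustment.

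Within the ERK pathway list of 30 genes, Mapk3 was the 1 member called by edgeR with all 16 libraries, and the median was 0.02. The feedback phosphatase Dusp6 had an averaged log2 value of -0.05 (-0.40 to 0.30). Etv5, a transcription factor induced by ERK signalling, had 22.6, 24.3, 19.7 and 18.7 CPM in P14 df/+, against 23.1, 14.9, 15.5 and 16.8 CPM in P14 WT. Its P50 values were 12.9, 11.6, 12.4 and 16.7 CPM in df/+, against 8.51, 8.80, 9.42 and 9.76 CPM in WT. The groups overlapped at P14 and did not at P50. The averaged log2 value of Etv5 was 0.42 (0.17 to 0.67), and it did not pass the adjustment (adjusted p = 0.788, edgeR). It was called without both libraries that stood apart (0.53, adjusted p = 0.0372, edgeR) and by limma-voom with library weights (0.51, adjusted p = 0.0499). The former fit called 72 of 15560 genes and the latter 86 of 15368, against 18 in the main fit. With library weights 4415 genes had an unadjusted p under 0.05 by limma-voom, against 639 by edgeR in the main fit.

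**Figure D4:**
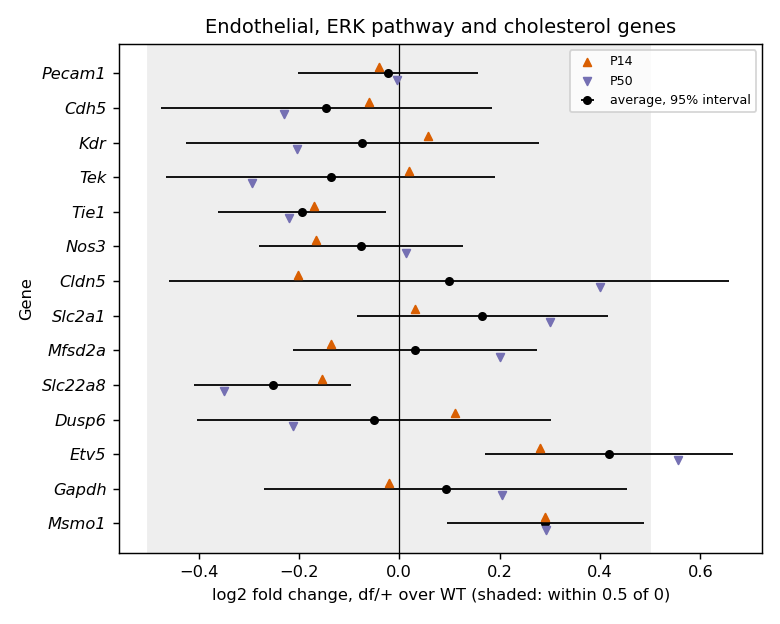
Averaged log2 fold change (df/+ over WT) with 95% intervals for 14 genes of endothelial identity, barrier, ERK signalling, housekeeping and cholesterol metabolism, with triangles for P14 and P50. Most intervals lie inside the shaded range within 0.5 of 0; those of Cldn5 and Etv5 reach beyond it.

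Several lists had medians of opposite sign at the ages and near 0 in the average. Of 49 cytosolic ribosomal protein genes, 1 was above 0 at P14 and 48 at P50, against 7009 and 8148 of all 15368 genes. Their medians were -0.21 at P14, 0.33 at P50 and 0.06 in the average. Oxidative phosphorylation genes (38) had medians of -0.13 and 0.22, with 2 of 38 above 0 at P14 and 38 of 38 at P50. The 7 tested mitochondrially encoded genes had 0.32 and -0.34, immediate early genes (25) 0.16 and -0.26, and cell cycle genes (30) -0.12 and 0.23. Of these lists' members 0 were called in the average by edgeR. The averaged medians changed sign with single libraries: without replicate 2 of P50 df/+ that of the ribosomal list was -0.16 and that of oxidative phosphorylation -0.14, and the other omissions gave up to 0.17 and 0.12. Limma-voom with library weights gave -0.33 and -0.26, and 0.33 for the mitochondrially encoded genes, whose averaged median was -0.03 in edgeR. The difference between ages coincides with the library numbers. Within P50 df/+ the mean log2 level of the ribosomal list, relative to WT of that age, was 0.51, 1.18, -0.67 and -0.39, so 2 libraries lay above WT and 2 below.

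Cholesterol synthesis genes leaned the same way at both ages. Of 22 tested members 21 were above 0 in the average, 20 at P14 and 17 at P50, with medians of 0.16, 0.10 and 0.20. Of all 15368 genes 7915, 7009 and 8148 were above 0. By edgeR 2 of the 22 had an unadjusted p under 0.05, and 0 were called. Msmo1, a sterol oxidase of the pathway, had 46.6, 42.7, 36.7 and 33.4 CPM in P14 df/+, against 37.5, 31.3, 29.5 and 32.1 CPM in P14 WT. P50 libraries had 48.1, 48.2, 43.0 and 40.6 CPM in df/+, against 32.2, 33.8, 40.2 and 40.6 CPM in WT. The groups overlapped at P14, and at P50 the lowest df/+ and highest WT libraries both had 40.6 CPM. Its log2 value was 0.29 (0.09 to 0.49, unadjusted p = 0.00644, edgeR). Interferon response genes leaned the other way, with 27 of 35 below 0 and a median of -0.17, from -0.25 at P14 and -0.03 at P50. Of all 15368 genes 7453 were below 0, and 2 of the 35 had an unadjusted p under 0.05 (edgeR). Irf1 had -0.24 and Oasl2 -0.35. Glycolysis and hypoxia genes (26) had a median of 0.09, with -0.05 at P14 and 0.24 at P50. In this list 3 genes had an unadjusted p under 0.05 by edgeR, the interval gene Aldoa (-0.90), Pdk1, which restrains entry of pyruvate into mitochondria (-0.23), and the hexokinase Hk2 (1.04), and 0 were called. Hk2 averaged 1.95 ± 0.365 CPM in P14 df/+ and 0.580 ± 0.586 CPM in P14 WT (SD, n = 4 each), and without both libraries that stood apart it was called (1.71, adjusted p = 0.0123, edgeR).

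Markers of other cells had the largest list medians outside the interval. Of 20 microglia genes 19 were above 0, 11 with an unadjusted p under 0.05 and 0 called by edgeR, against 2.23% of all genes higher at that p. Limma-voom with library weights called Ctss with all 16 libraries (adjusted p = 0.0311), and 86 of 15368 genes in all. The median of the microglia list was 0.95, from 1.57 at P14 and 0.33 at P50. The summed level of the list was 209.5 to 296 CPM in df/+ and 76.8 to 244 CPM in WT at P14, and 88.3 to 207 CPM in df/+ and 81.3 to 139 CPM in WT at P50. Tmem119, a microglial surface protein, had 4.51, 2.31, 4.6 and 5.63 CPM in P14 df/+, against 3.96, 0.936, 0.619 and 0.5 CPM in P14 WT. Values at P50 were 3.55, 6.37, 1.74 and 1.67 CPM in df/+, against 2.33, 2.52, 1.33 and 2.04 CPM in WT. Replicate 1 of P14 WT stood with the df/+ libraries for this gene. Without that library the list's median was 1.61 and 5 members were called by edgeR, Fcrls, Ctss, C1qb, C1qc and Csf1r, against 0.23% of all genes tested in that fit. The library was set apart by its high Csf1r, a gene of this list, so these calls depend on that choice and are not independent evidence. The isolation removed CD45-positive cells, and the part of residual cells in these values was not tested.

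The perivascular macrophage list (10 genes) had 8 above 0 and a median of 0.75, from 1.30 at P14 and 0.09 at P50. With all 16 libraries, limma-voom with library weights called its member Mrc1 (adjusted p = 0.0309). The list's summed level was 577 to 708 CPM in df/+ and 599 to 687 CPM in WT at P14, and 231 to 339 CPM in df/+ and 251 to 307 CPM in WT at P50. Most of this sum was Stab1, which endothelial cells also express, with 555.02 ± 45.5 CPM in df/+ and 619 ± 71.8 CPM in WT at P14 (SD, n = 4) and an averaged log2 value of -0.10. Cd163, a scavenger receptor, had 9.72, 12.5, 12.7 and 8.10 CPM in P14 df/+, against 9.03, 1.29, 2.48 and 1.36 CPM in P14 WT. Among P50 libraries it had 3.44, 3.50, 2.62 and 3.39 CPM in df/+ and 4.16, 3.38, 2.30 and 2.04 CPM in WT, which overlap. Without replicate 1 of P14 WT the median was 1.31, and Cd163 and F13a1 were called by edgeR. Without both libraries that stood apart, 7 microglia and 4 perivascular macrophage genes were called by edgeR, against 0.463% of all genes tested in that fit. Since replicate 1 of P14 WT was set apart by a macrophage gene, the calls made without it depend on that choice and are not independent evidence. Of the defining markers, Lyve1 was at 0 in its lowest library, while P2ry12, Tmem119, Cx3cr1, Csf1r, Cd163 and Mrc1 had reads in every library.

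Other cell types gave smaller medians with all 16 libraries. Erythrocyte and platelet genes had 0.55 (10 of 11 above 0), ependymal and choroid plexus genes 0.51 (9 of 10), neuronal genes 0.33 (14 of 18), oligodendrocyte precursor genes 0.31 (10 of 12), oligodendrocyte genes 0.29 (14 of 16) and astrocyte genes 0.26 (16 of 18). Fibroblast genes had 0.15 (13 of 17), smooth muscle genes 0.13 (7 of 11) and pericyte genes 0.05 (10 of 15). The oligodendrocyte median depended most on 1 library: it was 1.31 without replicate 1 of P14 WT, as high as that of the macrophage list, and as low as 0.13 without another. Over the single omissions the median ran between 0.01 and 0.52 for neuronal genes, 0.20 and 0.49 for precursor genes, and 0.19 and 0.69 for choroid plexus genes. The choroid plexus median was -0.27 in limma-voom with library weights. The same omissions gave 0.08 to 0.29 for fibroblast genes, 0.05 to 0.23 for smooth muscle genes and -0.04 to 0.07 for pericyte genes. The lowest and highest fibroblast medians came without replicates 3 and 4 of P50 WT, the lowest and highest smooth muscle ones without P14 df/+ replicate 3 and P50 WT replicate 4, and the pericyte median was below 0 without P50 df/+ replicate 4 or P50 WT replicate 1. Of the 14 lymphocyte and neutrophil genes 4 had enough reads to be tested, with 3 of them below 0 and a median of -0.47, between -0.75 and -0.28 over the single omissions. Their median was 0.31 at P14 and -0.99 at P50. Gfap, an astrocyte filament gene, had 239 CPM in replicate 1 of P50 df/+ and 22.8 to 34.8 CPM in the other 3 of that group, against 20.1 to 42.6 CPM in P50 WT. At P14 it had 45.3 to 54.8 CPM in df/+ and 25.0 to 39.2 CPM in WT. Its averaged log2 value was 1.08 (unadjusted p = 0.0157), and 0 genes of these lists were called by edgeR with all 16 libraries. The fibroblast gene Ogn was called without both libraries that stood apart. With all 16 libraries, limma-voom with library weights also called Ogn (adjusted p = 0.0498).

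**Figure D5:**
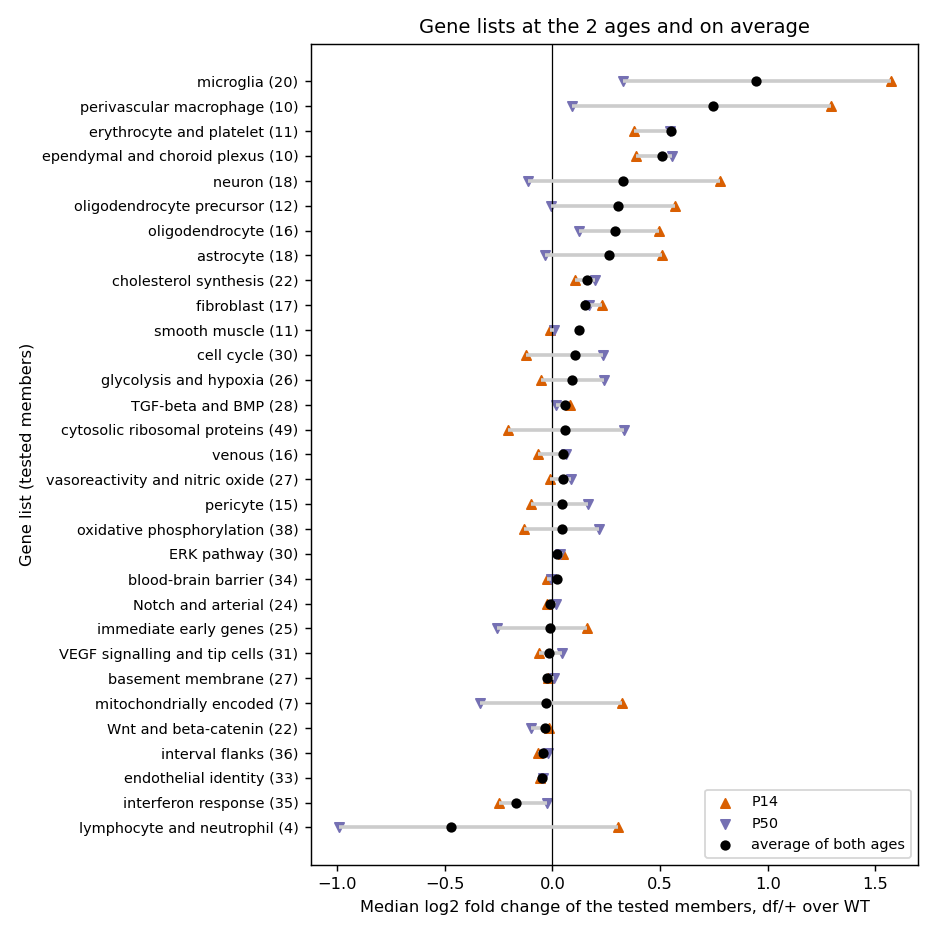
Median log2 fold change (df/+ over WT) of the tested members of each gene list, with triangles for P14 and P50 and circles for the average; numbers of tested members are in parentheses. Endothelial lists sit near 0 at both ages, ribosomal and oxidative phosphorylation lists have opposite signs at the ages, and microglia and perivascular macrophage lists lie highest, at 0.95 and 0.75.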

How the data were processed

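Libraries of polyadenylated RNA were strand-specific, per the labels' protocols. The table the authors deposited holds raw read counts per gene. STAR 2.5.3a, the GRCm38.p5 build and DESeq2 are named per the submitters' processing notes. Counting tool, strand use and annotation were not given in the sources used here. Neither the normalized table nor the mapping summary was used. Of 52636 gene IDs, 52403 matched GENCODE M21 (GRCm38), which gave symbols and positions; the unmatched ones took 0.0296% to 0.0508% of a library's counts.

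The counts entered edgeR 4.0.16 (R 4.3.3; quasi-likelihood F test) in 1 fit of 16 libraries, with 4 group means and TMM factors of 0.917 to 1.05. Genes were kept with at least 0.647 CPM (a minimum count of 10) in 4 libraries, which held at least 99.6% of every library's counts. Residual degrees of freedom were 12, and the biological coefficient of variation was 29.1%. Benjamini-Hochberg adjustment ran over all 15368 genes, and genes under 0.05 were called. Intervals (95%) come from the SE. In simulated counts the test called 90 of 100 genes planted with a log2 change of 1 and 100 of 100 with 2. It also called 6 of 15168 genes without a change. In the data 15 of 29 tested interval genes were called, so the simulated share called does not carry over. Counting intervals and the floor of 3 reads cover counting error only. No pair of replicates agreed within sampling noise, so 16 samples were counted.

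The interval was taken by coordinates, as genes lying wholly between Slx1b and Sept1. Named are the called genes, the next smallest p-values outside the interval up to 15 genes, up to 3 genes per list, and a set of endothelial, ERK and housekeeping genes. Some genes this rule names are not reported here. Members and lists were chosen with earlier results of these data known, and lists are described without a test. Of 791 list entries in 33 lists, 787 were in the table. Alternatives used DESeq2 1.42.0, limma 3.58.1 and sva 3.50.0.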

Additional observations from a re-analysis of the deposited data

Results flagged for a closer look

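In 132 groups of 4 libraries, 11 had 1 library far from the other 3, measured by its gap relative to the group's range; chance alone gives such a gap in about 1 in 20 groups. Among interval genes, these were Maz in P50 df/+ replicate 2 (167.8 CPM, above the rest), Slx1b in P14 df/+ replicate 2 (5.172 CPM, below), Ypel3 in P14 df/+ replicate 3 (42.6 CPM, above), AI467606 in P14 WT replicate 1 (41.83 CPM, below) and Mylpf in P14 WT replicate 1 (7.13 CPM, above). Nonagouti stood out in replicate 3 of both WT groups, at 0.4817 CPM at P14 and 0.06981 CPM at P50, which are 7 reads and 1 read.

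Outside the interval, Aldh1a1 in P14 df/+ replicate 3 (33.33 CPM) and Irx3 in P14 WT replicate 1 (2.694 CPM) lay above the rest, and Mxra7 in P14 df/+ replicate 1 (40.35 CPM) lay below. The perivascular macrophage list in P14 WT replicate 1 had a mean log2 level 1.372 above the P14 WT mean. Of the 11, 4 were in P14 WT replicate 1.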

How the results depend on the processing

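The count of 15 called interval genes stayed within 13 to 22 under every alternative, and the 0 genes called for a difference between the ages stayed at 0. No value named here changed direction among called genes. Outside the interval (2 genes higher and 1 lower) and at the single ages (10 at P14, 9 at P50) the counts moved. The 1 lower gene became 0 with RLE size factors, with upper-quartile scaling, without a filter on low counts, with a minimum count of 50, with limma-voom and with additive age and genotype. Upper-quartile scaling gave 5 calls at P14, and the minimum count of 50 gave 1 higher gene. DESeq2 gave 8 higher and 7 lower genes outside, 23 calls at P14 and 31 at P50. Limma-voom with library weights gave 43, 21, 347 and 34, and 1 surrogate variable gave 4, 8, 21 and 35. Removal of the transcript length trend gave 2 lower genes. Without both libraries that stood apart the counts were 48, 3, 137 and 18. Leaving out 1 library at a time gave 1 to 19 higher, 0 to 1 lower, 3 to 73 calls at P14 and 5 to 16 at P50; the 19 and the 73 came without P14 WT replicate 1.

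Replicates of the genotypes that share a number in the sample titles had correlated deviations of both signs (between -0.17 and 0.23 for P14 and between -0.55 and 0.49 for P50). The column names give the pools other numbers, and pairs by those numbers were not examined, so a pairing cannot be decided here. With a block for the title number 1 higher gene outside the interval and 3 genes at P14 were called, and the interval count stayed at 15. The cause of these shifts was not tested.

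Single calls depended most on settings for Zswim1 (7 of 13 alternatives other than single omissions), Mylpf (10 of 13), Kif22 (12 of 13) and Tyr (11 of 12, adjusted p = 0.232 by edgeR with the block). Ino80e and Mvp were lost once, with the length trend removed (adjusted p = 0.116 and 0.201 by edgeR). The median of all genes moved by less than 0.1 under every scaling. Low read numbers limit what can be said of the coat colour genes, whose WT libraries had few or no reads, and of the 27 interval IDs with too few reads to test. The reason for the low numbers was not tested.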
